A study of Homo sapiens with 12 samples.

Results

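Messenger RNA for 38 genes of cholesterol and fatty acid synthesis was followed in H358, a human lung adenocarcinoma cell line, with and without induction of the splicing factor SRSF2. The genes comprise 5 regulators of the pathway, 17 enzymes of sterol synthesis, 4 genes of sterol transport and sensing, and 12 genes of fatty acid synthesis and activation. Members were all gene probes whose RefSeq accession in the array files led, through the RefSeq gene table, to one of these symbols. This matching used no measured signal, but the gene list was chosen with earlier results of these data known. The matching gave 55 of the 41000 gene probes, for 36 of the 38 genes, and 53 of these probes were bright enough to be tested. ACLY and ABCG1 were matched to no probe. All samples came from 1 clone, H358/Tet-On/SRSF2, which carries SRSF2 behind a Tet-responsive promoter. The 6 arrays labelled SRSF2 over-expression held RNA of the clone after 24 hours with 1 μg/mL doxycycline, and the 6 control arrays held RNA of cells listed with no treatment, also at 24 hours. Whether the control cells met doxycycline is not given in the sources used here, so an effect of doxycycline itself and one of SRSF2 cannot be told apart. The array's single SRSF2 probe was lower in the 6 arrays labelled SRSF2 over-expression than in control (log2 fold change -1.46, SE 0.06, limma adjusted p = 1.68e-09), against the direction of the label. Whether its target lies within the transgene is not given in the sources used here, so conditions are called below by their labels (SRSF2-labelled and control arrays), and every direction rests on them. The study also measured SRSF2 in the induced clone by other assays, which are not used here.

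Cholesterol is built from acetyl-CoA in a chain of steps. The mevalonate arm makes farnesyl diphosphate, and the sterol arm joins and cyclizes it to lanosterol and trims that to cholesterol. Transcription of both arms is driven by SREBF2, and that of fatty acid synthesis more by SREBF1. Both factors are held in the endoplasmic reticulum, in a complex of SCAP and INSIG proteins, while sterols are plentiful, and are carried by SCAP to the Golgi for cleavage when sterols run low. Fatty acid synthesis starts with ACACA and FASN, and the products are lengthened by ELOVL enzymes, desaturated by SCD, FADS1 and FADS2, and activated to acyl-CoA by ACSL enzymes.

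Promoters of 6 members are shown first, because SREBF factors act there together with a factor that binds CCAAT, and because the sterol synthesis genes whose promoters carry CCAAT included some with lower and some with higher signal in the SRSF2-labelled arrays. Each line holds the 250 bases before and 50 bases after the RefSeq start, 5′ to 3′ on the gene's strand. Capitals mark every CCAAT on either strand (ATTGG where it lies on the other strand) and, in SREBF2, also the match to the sterol regulatory element TCACNCCAC.
SREBF2 (GRCh38.p14 chr22:41832855-41833154, plus strand): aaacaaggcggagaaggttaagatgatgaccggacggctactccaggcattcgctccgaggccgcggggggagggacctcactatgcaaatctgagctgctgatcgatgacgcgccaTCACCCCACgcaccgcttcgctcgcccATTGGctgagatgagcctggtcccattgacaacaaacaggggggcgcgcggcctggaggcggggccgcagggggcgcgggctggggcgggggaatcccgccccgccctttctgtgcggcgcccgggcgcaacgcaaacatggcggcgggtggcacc
MVD (GRCh38.p14 chr16:88663042-88663341, minus strand): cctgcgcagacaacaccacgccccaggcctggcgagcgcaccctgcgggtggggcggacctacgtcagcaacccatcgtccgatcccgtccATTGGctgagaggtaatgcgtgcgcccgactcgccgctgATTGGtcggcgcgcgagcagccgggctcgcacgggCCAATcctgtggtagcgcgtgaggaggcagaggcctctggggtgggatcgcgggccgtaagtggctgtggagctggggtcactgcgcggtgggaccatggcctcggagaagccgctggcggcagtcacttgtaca
FDPS (GRCh38.p14 chr1:155308616-155308915, plus strand): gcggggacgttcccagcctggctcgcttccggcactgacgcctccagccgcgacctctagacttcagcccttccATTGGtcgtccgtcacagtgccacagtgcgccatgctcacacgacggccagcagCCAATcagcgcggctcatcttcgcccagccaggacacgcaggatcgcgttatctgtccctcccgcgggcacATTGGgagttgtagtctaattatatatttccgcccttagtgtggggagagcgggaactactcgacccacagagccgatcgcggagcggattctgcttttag
LSS (GRCh38.p14 chr21:46228725-46229024, minus strand): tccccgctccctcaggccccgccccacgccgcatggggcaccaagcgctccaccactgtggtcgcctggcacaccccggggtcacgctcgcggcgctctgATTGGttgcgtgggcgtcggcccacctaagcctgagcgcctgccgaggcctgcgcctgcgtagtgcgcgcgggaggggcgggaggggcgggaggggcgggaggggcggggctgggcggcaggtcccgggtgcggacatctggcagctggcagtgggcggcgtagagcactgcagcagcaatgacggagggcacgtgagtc
MSMO1 (GRCh38.p14 chr4:165327419-165327718, plus strand): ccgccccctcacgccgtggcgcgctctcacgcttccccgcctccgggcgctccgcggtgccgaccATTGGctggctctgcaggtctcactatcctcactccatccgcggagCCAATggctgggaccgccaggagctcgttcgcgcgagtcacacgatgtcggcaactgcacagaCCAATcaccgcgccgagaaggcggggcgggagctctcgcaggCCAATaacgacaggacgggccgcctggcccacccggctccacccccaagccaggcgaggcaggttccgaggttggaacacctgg
NSDHL (GRCh38.p14 chrX:152830813-152831112, plus strand): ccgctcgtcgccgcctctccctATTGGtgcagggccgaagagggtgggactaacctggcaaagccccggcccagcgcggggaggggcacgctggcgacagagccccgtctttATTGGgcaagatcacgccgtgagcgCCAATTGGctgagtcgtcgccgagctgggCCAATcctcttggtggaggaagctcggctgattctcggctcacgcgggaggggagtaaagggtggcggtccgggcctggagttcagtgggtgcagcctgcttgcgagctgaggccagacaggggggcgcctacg

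RefSeq promoter windows were found for 34 of the 38 genes and numbered 48, since some genes have several starts; FDFT1, SQLE, FASN and ABCG1 had none in the table. CCAAT was present in 15 of the 20 windows of sterol synthesis genes (75%) and in 10 of the 19 of fatty acid genes (52.6%). Of all 35116 promoters in the table, 34.6% held it. By gene, it lay in 13 of 15 sterol synthesis genes and 8 of 11 fatty acid genes with a window. No share by gene was counted over all promoters. Of the sterol synthesis genes with a window, CYP51A1 and PMVK were without CCAAT. Of the sterol synthesis genes with a probe past both thresholds used below, 4 of 5 lower genes with a window and 3 of 3 higher genes carried it. The promoters of MVD (3 matches, lower signal) and MSMO1 (4 matches, higher signal) both held it, as most sterol synthesis genes with a window did. NSDHL had 5 matches, of which 1 pair on opposite strands overlaps. The GC box GGGCGG was found in 83.3% of the members' windows and 45.0% of all promoters. The sterol regulatory element in these exact letters was found in 2 of the 48 windows (4.17%), those of SREBF2 and ACSL1, against 1.13% of all promoters. A match describes letters in the window, and none of these shares was tested.

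The 12 arrays lay on 3 slides, each with 2 arrays of either condition. The share of spots well above background was 54.2 to 67.8% on control arrays and 55.2 to 68.0% on SRSF2-labelled arrays. The epithelial markers EPCAM, CDH1, KRT7, KRT8, KRT18 and KRT19 were well above background, PTPRC and COL1A2 were well above background on no array, and PECAM1 was well above background on all 12 at low signal (median -2.98 in control). Of these markers KRT7 differed most, by -1.32 on the log2 scale (SE 0.06, limma adjusted p = 1.66e-09); its part in the results was not tested. Values are log2 signals minus the 75th percentile of their own array, so that 0 is the signal below which 75% of gene probes lie. They may be compared between arrays for 1 probe and not between probes. Ranges over 6 arrays are given as lowest, median and highest. A probe is called higher or lower when its limma p, adjusted over all 24330 probes tested (Benjamini-Hochberg), is at most 0.05. Values by array are given for member probes that also have a log2 fold change of at least 0.5 in size. Outside this rule they are given for SREBF2, EBP, FASN, NPC1 and the other ACACA probe. Every array is counted as a replicate; per the study's supplement pairs of arrays share a labelling, so p-values measure the spread between arrays, which may be largely technical.

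Sterol synthesis probes were more often lower than higher in the SRSF2-labelled arrays, and fatty acid probes went both ways. Of the 25 tested probes of sterol synthesis genes, 14 were lower, 5 were higher and 6 passed in neither direction, with a median log2 fold change of -0.27. Of the 18 tested probes of fatty acid genes, 5 were lower, 6 were higher and 7 passed in neither direction, with a median of 0.14. Among all 24330 probes tested, 28.0% were lower and 29.7% were higher, with a median of 0.01. The share of probes called lower thus lay above the background for sterol synthesis genes, and that for fatty acid genes lay close to it. Within slides the sterol synthesis median was -0.13, -0.32 and -0.30, and the fatty acid median was 0.10, 0.12 and 0.09. With 1 probe per gene, the brightest, 10 of 17 sterol synthesis genes were lower and 3 higher, and 2 of 11 fatty acid genes were lower and 5 higher. The contrast of both gene groups is a description over probes measured on the same 12 arrays, and no test of it was made.

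**Figure D1:**
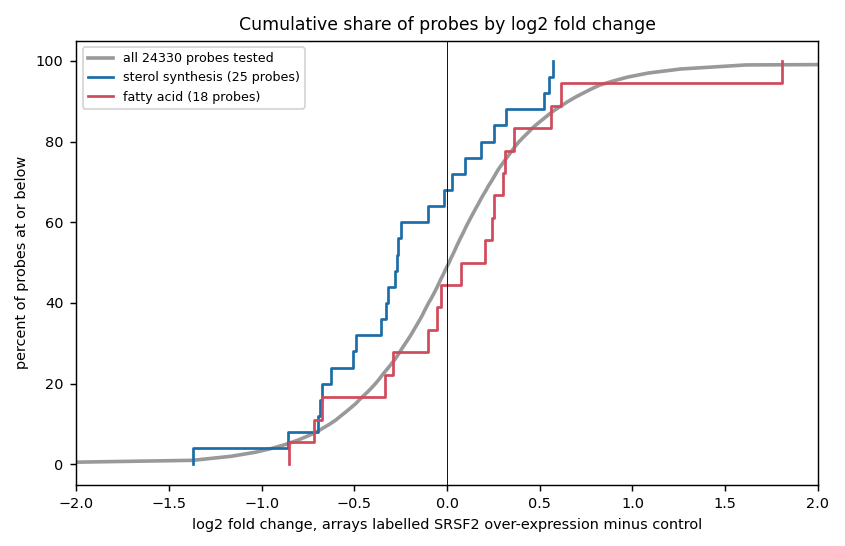
Cumulative percent of probes (vertical axis) at or below each log2 fold change (horizontal axis, SRSF2-labelled minus control arrays) for the 25 sterol synthesis probes, the 18 fatty acid probes and all 24330 probes tested. The sterol synthesis line lies left of the line of all probes around its median of -0.27, whereas the fatty acid line lies slightly to the right around its median of 0.14.

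The number of calls depended on the scaling. Scaling to 7 probes for control RNA that is added to each labelling (spike-in scaling) in place of the 75th percentile moved the median of all probes up by 0.21 on the log2 scale. It left 2 sterol synthesis probes lower and 3 higher, and 1 fatty acid probe lower and 3 higher, with medians of -0.06 and 0.35. Over all probes 6.15% were then lower and 20.7% higher, so the share of lower sterol synthesis probes lay near the background. Under that scaling 77.1% of all calls were higher, against 51.5% with the 75th percentile. Correcting the raw spot signal for background by a model of signal and noise (normexp) left 3 sterol synthesis probes lower and 1 higher, and 2 fatty acid probes lower and 2 higher, with medians of -0.24 and -0.02, where 5.79% of all probes were lower and 5.80% higher. The sterol synthesis median was below the fatty acid median in both of these settings, and the directions given here are relative to the 75th percentile of each array.

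Over all 53 tested members, 22 probes were lower and 16 were higher. The arrays of the conditions did not overlap for 27 of the 53 probes, against 40.2% of all probes tested. At a log2 fold change of 0.5 or more, 12 member probes were lower and 7 were higher, where the background was 14.2% and 14.5% of all probes. A 2-fold difference with an adjusted p of at most 0.05 was met by 7.00% of all probes and by 2 member probes, those of MVD (lower) and ACACA (higher). The 19 probes past a log2 fold change of 0.5 stood for 17 genes, and all 19 kept their direction on each of the 3 slides.

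Among the regulators, SCAP was lower and INSIG1 was higher in the SRSF2-labelled arrays, while SREBF2 itself did not pass the test. SCAP, the escort of the SREBF factors, had log2 signals of 2.64, 2.86 and 2.88 in control and 2.01, 2.14 and 2.33 in the SRSF2-labelled arrays. The conditions did not overlap, and the signal fell by 0.63 (SE 0.07, 1.54-fold, limma adjusted p = 6.96e-06). INSIG1, which retains SCAP in the endoplasmic reticulum and is itself switched on by the SREBF factors, had -0.32, 0.02 and 0.20 in control and 0.55, 0.65 and 0.73 in the SRSF2-labelled arrays. Its control arrays were all below its SRSF2-labelled arrays, with a rise of 0.64 (SE 0.08, 1.56-fold, limma adjusted p = 1.93e-05) and within-slide differences of 0.46, 0.58 and 0.88. The call for SCAP was lost with spike-in scaling (fold change -0.42, adjusted p = 0.171) and with normexp background correction (-0.44, adjusted p = 0.148), whereas INSIG1 passed in both (0.85 and 0.59).

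The other regulators had smaller fold changes. INSIG2, the second retention protein, had a probe that was higher by 0.21 (limma adjusted p = 0.0047) and one whose signal fell by 0.47 (limma adjusted p = 4.53e-05). SREBF1, the factor tied more to fatty acid synthesis, had fold changes of 0.40 (limma adjusted p = 0.0113) and 0.34 (limma adjusted p = 0.121). The first of its probes had a value on 5 of the 6 SRSF2-labelled arrays, the other spot being flagged as an outlier, and its conditions overlapped. SREBF2 had log2 signals of 2.66, 2.76 and 2.88 in control and 2.56, 2.61 and 2.82 in the SRSF2-labelled arrays, with a fold change of -0.10 (SE 0.06, limma adjusted p = 0.195). With the slide as a block it was called lower (limma adjusted p = 0.0201), but not with the replicate block (0.0630) or with the slide as a block on array pairs averaged first (0.274). The second SREBF1 probe was called higher with the replicate block (limma adjusted p = 0.00246). It was also called with averaged pairs and the slide as a block (0.0181), but not with averaged pairs alone (0.310). In all, 3 of the 7 regulator probes were higher and 2 lower, with a median of 0.21.

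In the mevalonate arm 5 of 7 probes were lower and none was higher, with a median of -0.32 and a range of -1.37 to 0.03. MVD, which decarboxylates mevalonate diphosphate to isopentenyl diphosphate, showed the widest gap of all sterol synthesis probes. Its log2 signals were 0.86, 1.00 and 1.12 in control and -0.55, -0.45 and -0.12 in the SRSF2-labelled arrays. No array of one condition reached the other, and the signal fell by 1.37 (SE 0.09, 2.59-fold, limma adjusted p = 4.24e-08), with differences of -1.36, -1.22 and -1.54 on the 3 slides. MVD also passed with spike-in scaling (-1.16, adjusted p = 0.000115) and with normexp (-1.09, adjusted p = 0.000672).

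HMGCS1, the enzyme that forms HMG-CoA at the head of this arm, had 2 probes, both lower. The first had log2 signals of 2.43, 2.45 and 2.62 in control and 1.65, 1.72 and 2.09 in the SRSF2-labelled arrays, and the signal fell by 0.67 (SE 0.09, limma adjusted p = 2.29e-05), and the second a fold change of -0.32 (SE 0.06, limma adjusted p = 0.000697). Neither probe's conditions overlapped. FDPS, which makes farnesyl diphosphate, had 5.50, 5.57 and 5.72 in control and 5.00, 5.10 and 5.14 in the SRSF2-labelled arrays. Its arrays were separate too, and the signal fell by 0.51 (SE 0.05, limma adjusted p = 3.43e-06). With spike-in scaling the call was lost for HMGCS1 (-0.47, adjusted p = 0.102) and FDPS (-0.30, adjusted p = 0.34), as it was with normexp. PMVK, the kinase before MVD, fell by 0.28 (limma adjusted p = 0.00372) with overlapping arrays. MVK, the kinase before PMVK (0.03), and IDI1, the isomerase after MVD (-0.10), did not pass.

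The sterol arm split by gene, with 9 of 18 probes lower, 5 higher and a median of -0.26. FDFT1, squalene synthase and the first committed step to sterols, was lower in every SRSF2-labelled array. Its log2 signals were 3.26, 3.40 and 3.42 in control and 2.60, 2.72 and 2.75 in the SRSF2-labelled arrays, and the signal fell by 0.69 (SE 0.05, 1.61-fold, limma adjusted p = 7.66e-08), nearly equal on the 3 slides (-0.71, -0.69 and -0.67). LSS, which closes the ring to lanosterol, was lower on both of its bright probes. For the first probe control arrays had 2.11, 2.13 and 2.21 and SRSF2-labelled arrays 1.21, 1.28 and 1.40, and the signal fell by 0.86 (SE 0.05, 1.81-fold, limma adjusted p = 1.36e-08). For the second the values were 3.28, 3.30 and 3.46 against 2.46, 2.57 and 2.99, and the signal fell by 0.69 (SE 0.09, limma adjusted p = 1.91e-05). Neither overlapped between conditions. Another LSS probe, well above background on 5 arrays of each condition, had a fold change of 0.25 (SE 0.11, limma adjusted p = 0.0635; 0.0218 with the replicate block and 0.0393 with averaged pairs and the slide as a block), and a last one, well above background on 2 control and 3 SRSF2-labelled arrays, was not tested.

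CYP51A1, the lanosterol demethylase, was lower on both probes. The first had log2 signals of 2.18, 2.28 and 2.33 in control and 1.49, 1.67 and 1.80 in the SRSF2-labelled arrays, without overlap, and the signal fell by 0.62 (SE 0.06, limma adjusted p = 1.45e-06). The second had a fold change of -0.36 (SE 0.10, limma adjusted p = 0.00988) and differences of -0.04, -0.50 and -0.52 on the slides, so that most of its fall lay on slides 2 and 3. With spike-in scaling the calls of FDFT1 (-0.48, adjusted p = 0.107), CYP51A1 (-0.42, adjusted p = 0.158) and the second LSS probe (-0.49, adjusted p = 0.119) were lost, and the first LSS probe passed (-0.65, adjusted p = 0.0226). With normexp both LSS probes passed and FDFT1 and CYP51A1 did not.

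MSMO1, NSDHL and SC5D were higher. They act on the sterol after the ring is closed, as do CYP51A1, HSD17B7 and DHCR7, which were lower. EBP, which passed in neither direction, and TM7SF2, with a probe called higher, act there too. MSMO1, a methyl oxidase, had log2 signals of -0.83, -0.79 and -0.56 in control and -0.49, -0.19 and 0.20 in the SRSF2-labelled arrays. The conditions did not overlap, but the rise of 0.57 (SE 0.12, 1.49-fold, limma adjusted p = 0.00133) differed between slides (0.77, 0.31 and 0.63). NSDHL, the dehydrogenase that works beside it, had -1.45, -0.59 and -0.52 in control and -0.32, -0.22 and -0.03 in the SRSF2-labelled arrays. Control array 2 lay far below the other control arrays, and the rise of 0.52 (SE 0.14, 1.43-fold, limma adjusted p = 0.00751) was 0.92 on its slide and 0.33 and 0.32 on the others. SC5D, a desaturase of the last steps, had 0.80, 0.96 and 1.09 in control and 1.40, 1.49 and 1.65 in the SRSF2-labelled arrays. That probe rose by 0.55 (SE 0.06, limma adjusted p = 6.01e-06) without overlap, a second rose by 0.32 (SE 0.07, limma adjusted p = 0.00105), and the dim remaining one had -0.49 (SE 0.28, limma adjusted p = 0.149). With normexp MSMO1 (0.32, adjusted p = 0.202) and NSDHL (0.43, adjusted p = 0.117) did not pass, and SC5D did (0.62, adjusted p = 0.0202).

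Other sterol arm genes moved by less than 0.5. SQLE, the squalene epoxidase, fell by 0.25 (limma adjusted p = 0.016). DHCR7, which completes cholesterol, fell by 0.33 (SE 0.12, limma adjusted p = 0.0295), and its arrays overlapped because of control array 2. HSD17B7, a ketoreductase, was lower on both probes (-0.27 and -0.26) with no overlap between conditions. TM7SF2, a sterol reductase, had fold changes of 0.18 (limma adjusted p = 0.0309) and 0.10 (limma adjusted p = 0.159; 0.0451 with the replicate block and 0.278 with averaged pairs and the slide as a block). EBP, the sterol isomerase, had log2 signals of 5.13, 5.16 and 5.18 in control and 5.09, 5.15 and 5.21 in the SRSF2-labelled arrays, with a fold change of -0.02 (SE 0.04, limma adjusted p = 0.731).

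**Figure D2:**
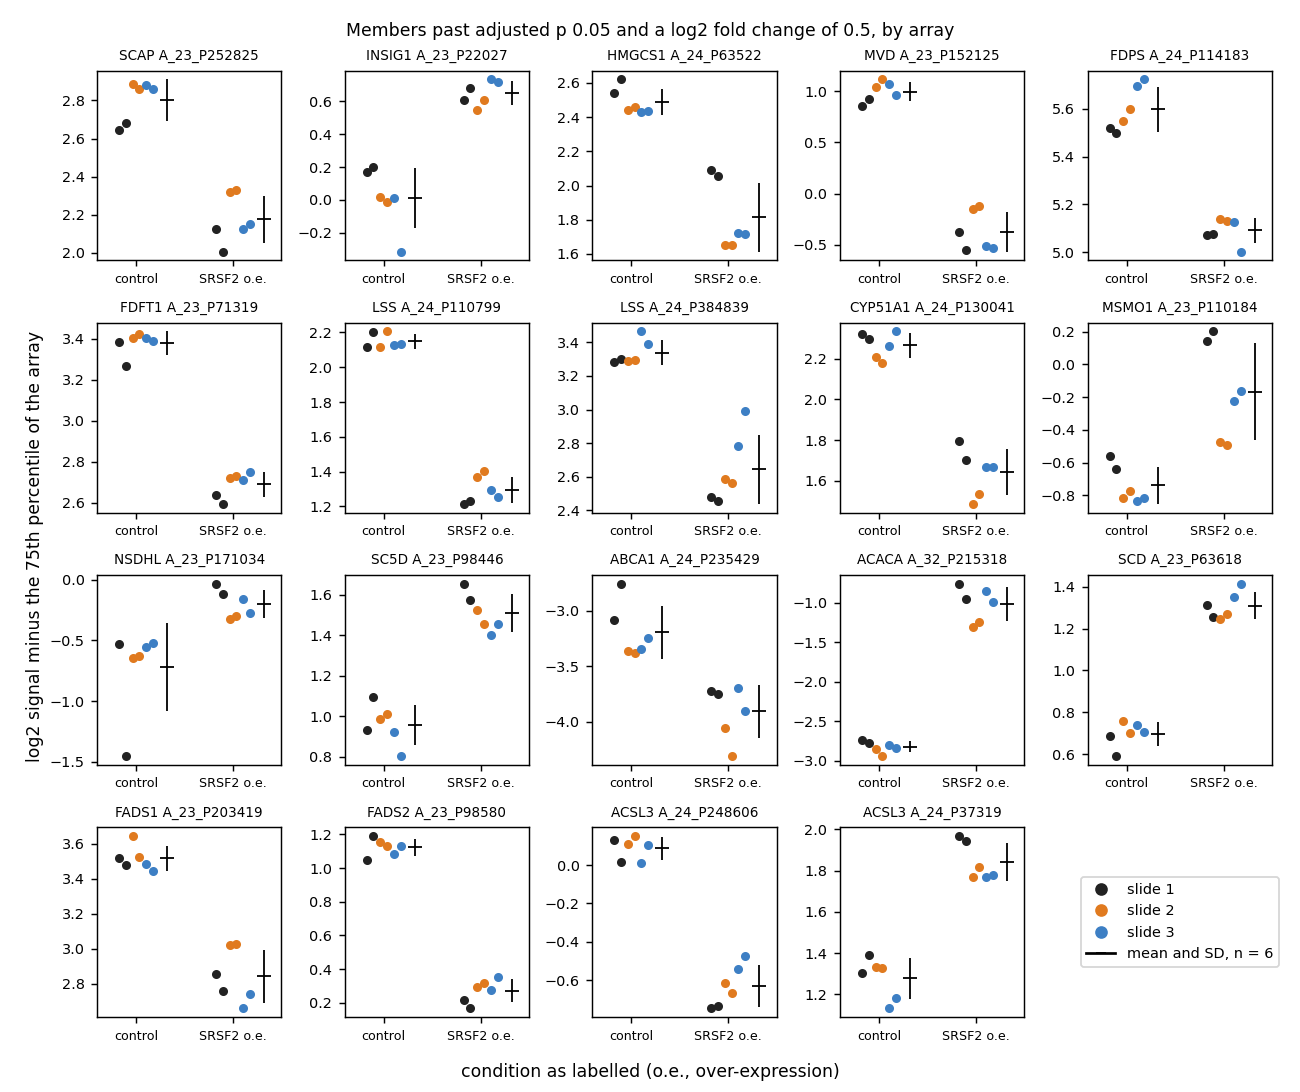
Log2 signal minus its array's 75th percentile (vertical axis, own scale per panel) of the 19 member probes past both thresholds, for 6 control and 6 SRSF2-labelled arrays, coloured by slide, with mean and SD beside them. The arrays of the conditions are separate in all 19 panels; NSDHL shows 1 control array at -1.45, and the MSMO1 points of slide 1 lie highest.

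Of the sterol transport genes, ABCA1, which exports cholesterol from the cell, was lower and NPC1, which moves it out of lysosomes, was higher. ABCA1 had log2 signals of -3.38, -3.29 and -2.76 in control and -4.31, -3.83 and -3.69 in the SRSF2-labelled arrays on a dim probe, well above background on 6 control and 5 SRSF2-labelled arrays. The conditions did not overlap, and the signal fell by 0.71 (SE 0.13, limma adjusted p = 0.00044). That call was lost with spike-in scaling (-0.50, adjusted p = 0.0816) and normexp (-0.57, adjusted p = 0.527). A second ABCA1 probe was well above background on no array and was not tested. NPC1 had -1.04, -0.93 and -0.78 in control and -0.62, -0.47 and -0.44 in the SRSF2-labelled arrays, a rise of 0.41 (SE 0.06, limma adjusted p = 3.14e-05) without overlap, which passed with spike-in scaling (0.62, adjusted p = 0.0291) and not with normexp (0.22, adjusted p = 0.388). STARD4, a soluble sterol carrier, was higher by 0.14 (limma adjusted p = 0.0456), with overlap.

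Fatty acid synthesis showed no common direction, with 4 of 14 probes higher, 4 lower and a median of 0.02. ACACA, the acetyl-CoA carboxylase that commits carbon to fatty acids, gave the widest difference of all members. On one probe the log2 signals were -2.94, -2.82 and -2.73 in control and -1.31, -0.97 and -0.76 in the SRSF2-labelled arrays, a rise of 1.81 (SE 0.09, 3.49-fold, limma adjusted p = 6.21e-09). The other ACACA probe had -3.20, -3.11 and -2.94 in control and -3.68, -3.46 and -3.19 in the SRSF2-labelled arrays, with a fold change of -0.33 (SE 0.08, limma adjusted p = 0.00422). The first did not overlap and was higher on every slide (1.90, 1.62 and 1.90), while the second overlapped and was lower on every slide (-0.44, -0.21 and -0.36). Both were well above background on all 12 arrays yet below the 75th percentile, and with normexp neither passed (0.88, adjusted p = 0.0744, and -0.47, adjusted p = 0.608). No single direction can be given for the gene. FASN, the synthase itself, did not pass (-0.11, SE 0.07, limma adjusted p = 0.197; 0.0362 with the slide as a block, 0.0969 with the replicate block and 0.254 with averaged pairs and the slide as a block), with log2 signals of 1.38, 1.49 and 1.61 in control and 1.21, 1.36 and 1.53 in the SRSF2-labelled arrays.

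The desaturases moved apart. SCD, which makes monounsaturated fatty acids, had log2 signals of 0.59, 0.70 and 0.76 in control and 1.25, 1.29 and 1.41 in the SRSF2-labelled arrays on its first probe, a rise of 0.61 (SE 0.05, 1.53-fold, limma adjusted p = 2.48e-07). Its other probes had fold changes of 0.32 (limma adjusted p = 0.0129) and 0.30 (limma adjusted p = 0.132). FADS1 and FADS2, which desaturate polyunsaturated fatty acids, were lower. FADS2 had 1.05, 1.13 and 1.19 in control and 0.17, 0.29 and 0.36 in the SRSF2-labelled arrays, and the signal fell by 0.85 (SE 0.05, 1.80-fold, limma adjusted p = 1.36e-08). FADS1 had 3.45, 3.50 and 3.65 in control and 2.66, 2.81 and 3.03 in the SRSF2-labelled arrays, and the signal fell by 0.67 (SE 0.07, 1.60-fold, limma adjusted p = 3.84e-06). None of these 3 probes overlapped between conditions. The second FADS1 probe was lower too (-0.29, limma adjusted p = 0.0257), and the second FADS2 probe, well above background on 5 control and 4 SRSF2-labelled arrays, had -0.05 (limma adjusted p = 0.729). SCD and FADS2 passed with spike-in scaling (0.82 and -0.64) and with normexp (0.54 and -0.70); FADS1 passed in neither (-0.47, adjusted p = 0.104, and -0.45, adjusted p = 0.222).

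Among the elongases only 1 of 4 tested probes passed, a probe of ELOVL5, which lengthens polyunsaturated fatty acids (0.36, SE 0.06, limma adjusted p = 0.000161, without overlap). A second ELOVL5 probe (-0.03), ELOVL1 (0.08), which makes very long chains, and ELOVL6 (0.21), which lengthens palmitate, did not pass. With the replicate block ELOVL6 did (limma adjusted p = 0.00764), and with averaged pairs and the slide as a block it did not (0.0609). ACSL3, an acyl-CoA synthetase of lipid droplets, again had probes that went opposite ways. The first had log2 signals of 0.01, 0.11 and 0.15 in control and -0.75, -0.64 and -0.47 in the SRSF2-labelled arrays, and the signal fell by 0.72 (SE 0.06, limma adjusted p = 3.24e-07). For the second they were 1.13, 1.31 and 1.39 in control and 1.77, 1.80 and 1.97 in the SRSF2-labelled arrays, a rise of 0.56 (SE 0.06, limma adjusted p = 4.91e-06). Both were separate between conditions and kept their sign on each slide (-0.82, -0.77 and -0.57 for the first, 0.61, 0.46 and 0.62 for the second). The first was not called with spike-in scaling (-0.51, adjusted p = 0.084). ACSL1, the main synthetase of fat and liver, was higher by 0.24 (limma adjusted p = 0.00596), and ACSL4, which prefers arachidonic acid, had 0.25 (limma adjusted p = 0.112; 0.0200 with the replicate block and 0.0781 with averaged pairs and the slide as a block).

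Probes of 1 gene thus disagreed for several members. Of the 14 member genes with 2 or more tested probes, 3 (ACACA, ACSL3 and INSIG2) had a probe called higher and a probe called lower, whereas 9.57% of all 3741 genes with 2 or more tested probes did. HMGCS1, CYP51A1, HSD17B7 and FADS1 were lower on both of their probes, and SC5D and SCD had 2 of 3 probes higher. Which transcripts each probe reads was not worked out here.

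**Figure D3:**
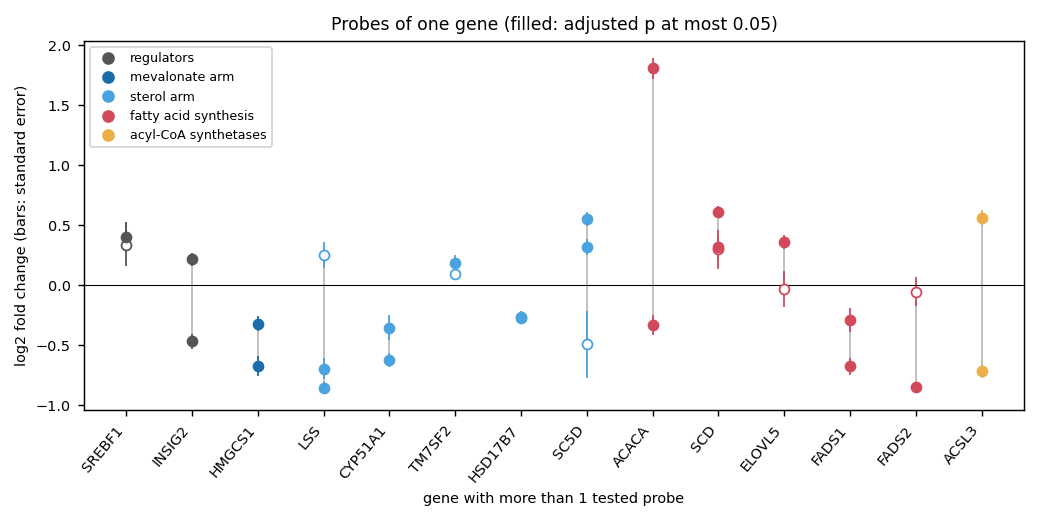
Log2 fold change (points, with limma standard errors as bars) of every tested probe for the 14 member genes with more than 1, coloured by role; grey lines join probes of a gene, and filled points have an adjusted p of at most 0.05. The probes of ACACA (1.81 and -0.33), ACSL3 (0.56 and -0.72) and INSIG2 (0.21 and -0.47) lie on opposite sides of 0.

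A further list of 38 genes of the same pathways, 50 of whose 60 probes were tested, had 14 probes higher and 16 lower. Its 25 sterol probes went the other way from the members, with 10 higher and 5 lower (median 0.02), and its 20 fatty acid probes were 3 higher and 10 lower (median -0.26). The contrast of sterol with fatty acid genes seen in the members was therefore not seen in this list. Of its 5 probes on the side of LXR, the sterol-sensing receptor that raises ABCA1, 1 was higher and 1 lower. Differences of at least 1 on the log2 scale with an adjusted p of at most 0.05 were met by MBTPS2 and ERLIN1. MBTPS2, the protease that makes the second cut in SREBF factors, had log2 signals of -2.32, -2.04 and -1.95 in control and -1.09, -0.82 and -0.72 in the SRSF2-labelled arrays, a rise of 1.21 (SE 0.08, limma adjusted p = 5.51e-08). ERLIN1, a protein of the endoplasmic reticulum that binds this machinery, had a probe with -2.35, -2.19 and -2.13 in control and -1.03, -0.97 and -0.84 in the SRSF2-labelled arrays, a rise of 1.26 (SE 0.05, limma adjusted p = 1.37e-09), and another with 0.04 (limma adjusted p = 0.448). Both calls were lost with normexp, MBTPS2 at 0.48 (adjusted p = 0.315) and ERLIN1 at 0.63 (adjusted p = 0.103). MBTPS1, the protease of the first cut, went the other way from MBTPS2 at a smaller size. Its probes had -0.51 (limma adjusted p = 0.000165), -0.55 (2.13e-05) and -0.07 (0.633), the first and second without overlap. Neither of these passed with normexp (adjusted p = 0.296 and 0.122).

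**Figure D4:**
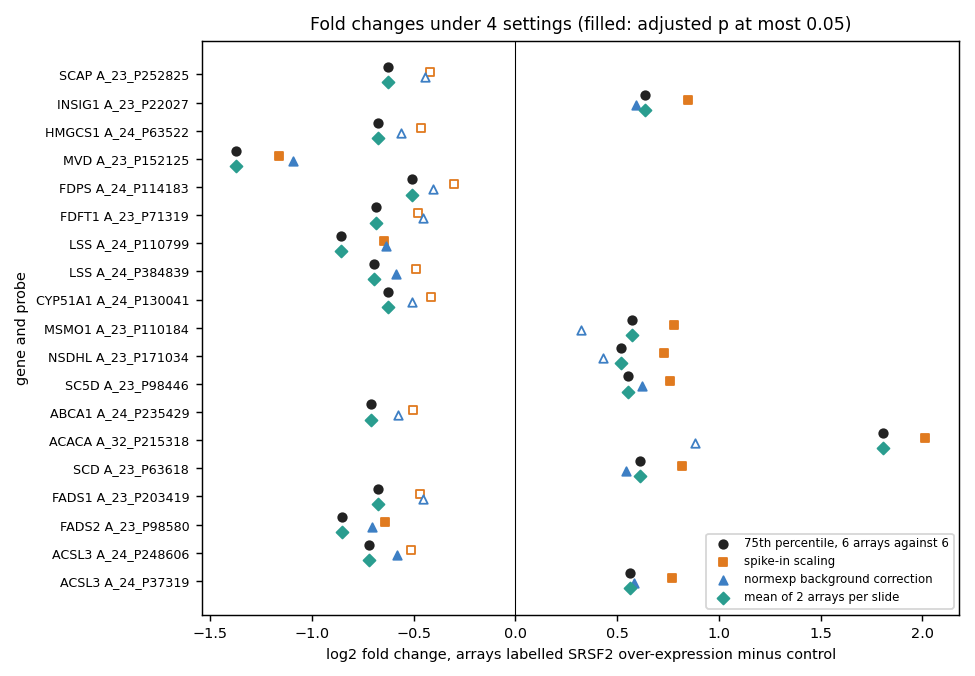
Log2 fold change of the 19 member probes past both thresholds under 4 settings (main scaling to the 75th percentile, spike-in scaling, normexp background correction, and array pairs averaged within slide and condition); filled symbols have an adjusted p of at most 0.05. All 19 keep their sign; 9 lower probes are open with spike-in scaling and 10 probes are open with normexp.

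Of the 19 probes, 7 passed under both spike-in scaling and normexp, 1 each of INSIG1, MVD, LSS, SC5D, SCD, FADS2 and ACSL3 (the probe that was higher). Of the 12 lower probes 3 passed with spike-in scaling and 5 with normexp, and of the 7 higher probes 7 and 4. Averaging each pair of arrays sharing slide and condition, which leaves 3 values against 3, kept all 19 calls, as did leaving out any 1 slide. Of the weaker calls, those of 12 probes were lost when a slide was left out, with limma adjusted p-values of 0.0540 to 0.331: SREBF1 (slide 2), INSIG2, PMVK, ACACA and SCD (slide 3), SQLE and ACSL1 (slide 1), CYP51A1 and DHCR7 (slides 2 and 3), TM7SF2 and FADS1 (slides 1 and 2) and STARD4 (slides 1 and 3). Over all 53 tested members, 8 probes were higher and 3 lower with spike-in scaling, and 4 were higher and 5 lower with normexp, against 20.7% and 6.15%, and 5.80% and 5.79%, of all probes. The 9 member probes that passed with normexp were all among these 19, and with spike-in scaling NPC1 was the 1 further probe. As RNA was taken from whole cultures, fewer expressing cells and less RNA per cell cannot be told apart.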

How the data were processed

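Total RNA was labelled with Cy3 and hybridized to 12 one-colour Agilent 44k arrays, 6 per condition. The scanner files hold intensities: the deposited processed signal is, per the file headers, background-subtracted by Feature Extraction 10.7.3.1, on a design annotated on hg18. The authors' table holds log2 values, which matched the log2 processed signal scaled to the 75th percentile and centred per probe (Pearson r over probes and arrays 0.9999; median absolute difference 0.000757); it served as an alternative. Columns of other series numbered 0.

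Here control spots and outlier-flagged spots were left out, spots of a probe were averaged, and log2 signals were taken minus the 75th percentile of the array. Probes were kept (24330) if absent from no more than 25% of arrays and, in either condition, well above background on 5 or 6 of its arrays. Conditions were compared with limma 3.58.1 (R 4.3.3; lmFit, eBayes, no covariate) with Benjamini-Hochberg adjustment. On simulated data with 200 probes changed by at least 2-fold, the fit recovered 190 of them and called 14 others of 23740. Noise was drawn independently for each array, without the shared deviations of a slide. These counts therefore do not cover smaller fold changes, a larger share of changed probes or arrays that vary together. The number of arrays limits the precision. RefSeq accessions named 23958 of 41000 probes.

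Same-numbered arrays of the conditions, which share a slide, deviated together (r 0.28 to 0.64 in 6 pairs), as did arrays of other numbers on the same slide (0.33 to 0.65) and not arrays on other slides (-0.48 to -0.05). Arrays thus varied together by slide and not by replicate number. Deviations were taken from the mean of a condition's 6 arrays. Where arrays of a slide vary together, this centring itself pushes the values between slides below 0. Per the study's supplement each labelling gave 2 arrays per condition, so a shared slide and a shared labelling cannot be told apart. A replicate block was among the alternatives, with the slide as a block, other scalings (median, quantile, spike-in) and normexp on the median spot signal (offset 50). The others were no subtraction, other filters, the methods' t-test, means of 2 arrays and leaving out each slide. Leaving out control array 2 was chosen after seeing the data. Members, gene lists and thresholds were chosen with earlier results of these data known. Values by array are given for members called at 0.05 with a log2 fold change of at least 0.5 in size, with the fold changes of all other tested probes of those genes. SREBF2, EBP, FASN, NPC1 and the other ACACA probe were added outside this rule. The further pathway genes are named from a log2 fold change of 1, and MBTPS1 was added outside this rule. SRSF2 is given as the check of the labels.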

Additional observations from a re-analysis of the deposited data

Results flagged for a closer look

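Of 108 groups of arrays looked at (control or SRSF2-labelled arrays of 1 probe of a member or of a gene checked beside them), 7 held an array whose gap to its nearest neighbour took more of the group's range than Dixon's 95% critical value (0.625 for 6 arrays); chance alone gives about 1 group in 20. Control array 2 was the one standing apart in 5 of the 7. It was lowest for NSDHL (gap over range 0.868; -1.45 against -0.64 for the next), FDFT1 (0.739; 3.27 against 3.38), CYP51A1 (0.728; -0.63 against -0.24) and DHCR7 (0.719; 3.98 against 4.55), and highest for a dim SCD probe (0.711; -2.26 against -3.00). Without it, TM7SF2 was no longer called (0.152, adjusted p = 0.061) and the dim SCD probe was called higher (0.448, adjusted p = 0.0023), and the other 51 member probes kept their calls. Control array 3 was highest for the dim SC5D probe (0.814; -2.28 against -3.85), and SRSF2-labelled array 3 was highest for the dim FADS2 probe (0.663; -4.06 against -4.44).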

How the results depend on the processing

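Few arrays and, at dim probes, background limit these results. No calls of the 53 probes were lost with the methods' t-test, the stricter filter, the replicate block or the slide block. The replicate block added 5 calls and the slide block 6, SREBF2 among them; on averaged pairs the slide block added 2, lost 4 and did not call SREBF2. Averaging 2 arrays per slide ended 13 calls, and left 9 sterol synthesis and 3 fatty acid probes lower. Spike-in scaling gave 6528 calls over all probes and normexp 2819. Sterol synthesis calls were 3 higher and 2 lower with spike-in scaling, and 1 and 3 with normexp; fatty acid calls were 3 higher and 1 lower, and 2 and 2. The sterol synthesis median became -0.064 with spike-in scaling. The fatty acid median was 0.117 with median scaling, 0.154 with quantile normalization, 0.349 with spike-in scaling, -0.024 with normexp, and 0.103, 0.0997 and 0.159 without slides 1, 2 and 3. Signs turned for no called probe but TM7SF2 with normexp (-0.134). Uncalled probes turned with spike-in scaling for SREBF2 (0.11), IDI1 (0.108), EBP (0.191), FASN (0.103), ELOVL5 (0.175) and FADS2 (0.155); with normexp for SREBF2 (0.081), MVK (-0.17), LSS (-0.288), EBP (0.161) and SCD (-0.103); for EBP with quantile normalization (0.019); for FADS2 without subtraction (0.011) and without slides 1 (0.066) and 3 (0.0058); and for EBP (0.016) and ELOVL5 (0.030; 0.134 without slide 3) without slide 2. The cause of these changes was not tested.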
